A study of Homo sapiens with 12 samples.

Results

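The aryl hydrocarbon receptor axis was followed through 8 genes, CYP1A1, CYP1A2, CYP1B1, AHR, AHRR, ARNT, TIPARP and CYP2S1, out of 16922 gene symbols on the array, which were read with 9 of its 24526 probes. Members were all probes that the platform annotation assigns to these symbols, with 2 probes for CYP2S1 and 1 for each other gene. The 8 genes were picked by name after CYP1A1 had been seen among the largest differences of these arrays, high with EX527 and low with MC2494. Their levels and differences in all 3 comparisons are therefore given as a description, without a test.

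The aryl hydrocarbon receptor, AHR, is a ligand-activated transcription factor that waits in the cytoplasm in a chaperone complex. On binding a ligand, such as dioxin, polycyclic aromatic hydrocarbons, some indoles or tryptophan metabolites, it enters the nucleus, pairs with ARNT and switches on genes that carry dioxin response elements. Its best known targets are the cytochromes P450 of family 1, which clear many of its ligands, and the feedback repressors AHRR and TIPARP. In monocytes and macrophages the receptor is known for its part in cytokine production and differentiation.

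The cells were U937, an established human leukaemia line of monocytic character, so that all groups carry the background of 1 transformed line. Groups of 4 arrays each were compared: control cells, cells exposed to EX527, an inhibitor of the deacetylase SIRT1, and cells exposed to MC2494, introduced by the series as a sirtuin inhibitor. Both exposures lasted 24 h. The labels give no dose and no vehicle, and leave it unsaid if separate cultures lie behind a group's 4 arrays, so errors and p-values measure only array-to-array spread, possibly technical. No slide or scan batch is named in the sources used here.

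On each array a probe counts as detected at a detection p under 0.05, and between 12231 and 13030 probes reached it. The lowest raw signal that was still detected lay between 77.9 and 90.1 (arbitrary units) over the 12 arrays. Mean raw signal per array ran from 764.0 to 792.6 in control, 710.7 to 783.2 in EX527 and 623.4 to 694.6 in MC2494, with no overlap between the MC2494 and control arrays. Levels below are on the log2 scale after background correction and quantile normalization, which removes such differences in overall signal. Of 11 myeloid marker genes on the array 9 were detected on all 12 arrays, among them CD68, ITGAM and SPI1, while the myeloperoxidase gene MPO was detected on none. Summed over the 11 genes, raw signal was 31332 to 35106 in EX527, below the 35620 to 37231 of control. In MC2494 it was 32810 to 36331, which overlapped with control. Of the 8 epithelial and hepatocyte markers, the cell types in which CYP1A1 and CYP1A2 are best known, 7 were detected on no array, and EPCAM was detected on 7 arrays. Summed over these 8 genes, the raw signal ran from 511.4 to 544.2 on control arrays, 524.1 to 555.4 on EX527 arrays and 502.4 to 541.5 on MC2494 arrays, and did not separate the groups. Of 7 lymphocyte markers CD79B and NKG7 were detected on all 12 arrays and 3 on none, and their summed raw signal was 7260.3 to 8233 in MC2494, below the 9578 to 9976 of control and the 9250.03 to 10445 of EX527. Of 6 erythroid and megakaryocyte markers 3 were detected on no array and none on all 12. Their sum was 518.3 to 551.3 in MC2494, below the 569.7 to 637.6 of control and the 557.0 to 585.6 of EX527. Only 1 of the 6 passed the detection filter, so this sum is mostly signal below detection. Of 6 fibroblast markers 5 were detected on no array and none passed the filter, and the summed raw signals of the groups overlapped. The part of these markers in the results of either treatment, and of the lower overall signal in those of MC2494, was not tested.

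Of the 8 genes, 4 passed the detection filter (detected on at least 4 of 12 arrays): CYP1A1, TIPARP, AHR and CYP2S1. TIPARP and AHR were detected on all 12 arrays, CYP1A1 on 8 and 1 CYP2S1 probe on 5. For CYP1A2, CYP1B1, AHRR, ARNT and the further CYP2S1 probe no array gave a detection p under 0.05. The sequences before the start sites of the 4 measured genes are shown because they differ in the core of the dioxin response element, GCGTG, which the AHR and ARNT pair binds. Each is the 250 bases before the first annotated start, from RefSeq on GRCh38.p14, written 5′ to 3′ on the gene's strand, with every GCGTG and its complement CACGC in capitals. The windows are chr15:74725529-74725778 on the minus strand for CYP1A1, chr3:156674340-156674589 on the plus strand for TIPARP, chr7:17298402-17298651 on the plus strand for AHR and chr19:41192969-41193218 on the plus strand for CYP2S1.
CYP1A1: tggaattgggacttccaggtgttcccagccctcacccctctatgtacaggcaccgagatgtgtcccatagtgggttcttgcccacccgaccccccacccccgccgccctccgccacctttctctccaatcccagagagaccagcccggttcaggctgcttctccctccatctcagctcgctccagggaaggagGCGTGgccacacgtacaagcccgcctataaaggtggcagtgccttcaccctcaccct
TIPARP: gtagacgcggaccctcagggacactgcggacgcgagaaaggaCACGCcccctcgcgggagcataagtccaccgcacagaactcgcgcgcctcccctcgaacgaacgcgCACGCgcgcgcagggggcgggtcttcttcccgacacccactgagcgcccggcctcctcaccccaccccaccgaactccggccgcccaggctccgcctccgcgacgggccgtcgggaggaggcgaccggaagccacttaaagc
AHR: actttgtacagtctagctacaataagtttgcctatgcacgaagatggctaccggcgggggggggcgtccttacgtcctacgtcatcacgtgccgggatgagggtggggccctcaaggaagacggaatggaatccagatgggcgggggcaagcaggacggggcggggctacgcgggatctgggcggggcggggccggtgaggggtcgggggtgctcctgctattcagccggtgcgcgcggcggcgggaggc
CYP2S1: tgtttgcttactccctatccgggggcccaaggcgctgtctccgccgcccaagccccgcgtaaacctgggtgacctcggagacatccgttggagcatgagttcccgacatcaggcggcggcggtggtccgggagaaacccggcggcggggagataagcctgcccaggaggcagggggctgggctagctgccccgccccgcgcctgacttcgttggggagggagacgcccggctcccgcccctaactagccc

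The CYP1A1 window held 1 match to the core and the TIPARP window 2, and the AHR and CYP2S1 windows held 0. Over all 35116 windows of this length in the RefSeq table, 32.2% held at least 1 match on either strand and 10.2% held 2 or more, so a match is common. The longer form TNGCGTG, every match of which contains the core, was in none of these 4 windows and in 4.52% of all windows. TIPARP has 2 further annotated starts, whose windows held 0 matches. Of the members not measured, AHRR has 2 annotated starts with 1 and 2 core matches, the first of them also a match to the longer form, and CYP1A2 and ARNT held 0. These counts describe letters in short windows and say nothing of binding.

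**Figure D1:**
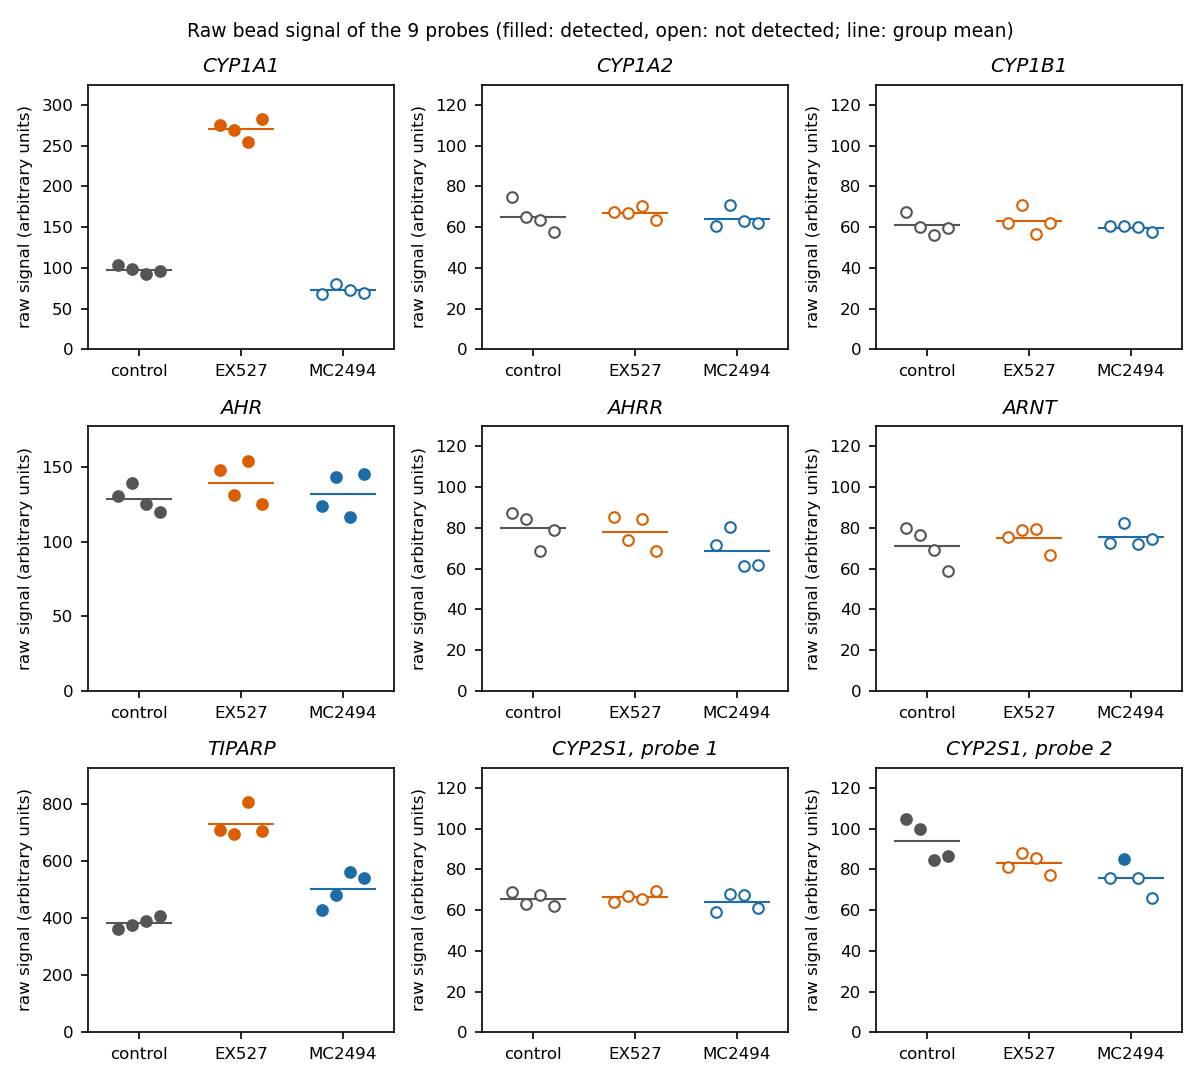
Raw bead signal (arbitrary units, linear axis from 0) of the 9 probes on each array, by group, with filled points detected, open points not detected and a line at the group mean. CYP1A1 lay between 254.5 and 282.6 on the EX527 arrays and at or below 103.1 on all others, and TIPARP lay between 696.5 and 807.9 in EX527.

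CYP1A1 encodes a cytochrome P450 that oxidises polycyclic aromatic hydrocarbons and is the standard readout of receptor activity. Its raw signal was 103.1, 98.9, 92.0 and 96.3 on the 4 control arrays, 275.1, 269.1, 254.5 and 282.6 on the EX527 arrays, and 68.0, 80.7, 72.7 and 68.7 on the MC2494 arrays. All 4 EX527 arrays were high and all 4 MC2494 arrays low, and no 2 groups overlapped. The gene was detected on every control and EX527 array and on none of the MC2494 arrays, where the detection p ran from 0.0693 to 0.223. Because these are whole-culture RNA samples, a change in the number of expressing cells and a change in RNA per cell cannot be told apart.

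After normalization CYP1A1 averaged 5.52 ± 0.07 on control arrays, 7.72 ± 0.13 on EX527 arrays and 4.88 ± 0.10 on MC2494 arrays (log2, SD, n = 4 arrays each). EX527 stood 4.58-fold above control (log2 difference 2.19 ± 0.07, SE), which ranked 4 among the 9956 genes from the highest. This size rests on the background correction: without it EX527 stood 2.70-fold above control, and the ratio of mean raw signals was 2.77-fold. Since no MC2494 array detected CYP1A1, its distance from that group has only a bound, set by the lowest detected signal of each MC2494 array. On the background-corrected scale MC2494 stood at least 1.32-fold below control and at least 6.03-fold below EX527. These bounds hold for that scale alone, since the mean raw signals, which are neither corrected nor scaled, stood 1.34-fold and 3.73-fold apart.

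The other enzymes of family 1 gave no detected signal in any group. CYP1A2, the liver enzyme that metabolises caffeine, had raw signals of 57.4 to 74.7 over the 12 arrays, with a lowest detection p of 0.239. CYP1B1, which hydroxylates oestradiol, had raw signals of 56.0 to 71.0, with a lowest detection p of 0.297. Neither gene can be ranked between groups, and a level below the detection limit is not shown to be absent.

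CYP2S1, an extrahepatic P450 that dioxin induces, had 1 probe with raw signals of 104.5, 100.0, 84.7 and 86.7 in control, 81.2, 88.2, 85.4 and 77.1 in EX527, and 76.0, 84.9, 75.9 and 65.8 in MC2494. The raw range of control overlapped with those of both treated groups, while the normalized values of control did not overlap with either. It was detected on all 4 control arrays, on none of the EX527 arrays and on 1 MC2494 array, so it passed the filter only through the group in which it was high. On the background-corrected scale EX527 was lower than control by at least 1.17-fold, while mean raw signals stood 1.13-fold apart. MC2494 was lower by 1.36-fold in the fit (log2 difference -0.44 ± 0.10, SE) and 1.21-fold once its 3 undetected arrays were set to their lowest detected signal. Without background correction the MC2494 difference was -0.25 on the log2 scale. The further CYP2S1 probe, at 59.1 to 69.2 on the raw scale, was detected on no array and gives no second reading.

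TIPARP, also called PARP7, is a mono-ADP-ribosyltransferase that the receptor induces and that in turn restrains the receptor. Its raw signal was 364.0, 376.1, 389.5 and 409.3 in control, 709.2, 696.5, 807.9 and 706.3 in EX527, and 429.0, 480.6, 561.4 and 541.2 in MC2494. The 3 groups did not overlap: control was lowest, MC2494 stood between and EX527 was highest. Normalized levels were 8.38 ± 0.14, 9.34 ± 0.05 and 8.90 ± 0.16 (log2, SD, n = 4). EX527 exceeded control by 1.95-fold (log2 difference 0.96 ± 0.08, SE) and MC2494 exceeded control by 1.43-fold (0.52 ± 0.08). MC2494 was 1.36-fold below EX527 (-0.45 ± 0.08), or by -0.59 on the log2 scale with no scaling between arrays. In MC2494, then, TIPARP was above its control level while CYP1A1 was below its own.

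AHRR, the repressor that competes with AHR for ARNT and for its binding sites, was not detected on any array. Its raw signals were 68.5 to 87.3 in control, 68.8 to 85.4 in EX527 and 61.4 to 80.4 in MC2494, and its lowest detection p, 0.0557, was just outside the limit. The members just inside the limit were CYP2S1, with detection p up to 0.0497 in control, and CYP1A1, with 0.0226 to 0.0241 there.

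AHR itself had raw signals of 130.6, 139.0, 125.3 and 120.0 in control, 147.8, 131.1, 154.4 and 125.3 in EX527, and 123.9, 143.1, 116.7 and 145.4 in MC2494. All 3 groups overlapped. Its log2 differences were 0.09 ± 0.11 for EX527 against control, 0.07 ± 0.11 for MC2494 against control and -0.02 ± 0.11 for MC2494 against EX527. The 95% intervals of these ratios ran from 0.897 to 1.26, from 0.885 to 1.24 and from 0.833 to 1.17, so changes up to these sizes lie within what the arrays allow. ARNT, the partner that AHR shares with the hypoxia-inducible factors, was detected on no array, with raw signals of 58.7 to 82.3 and a lowest detection p of 0.0587.

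**Figure D2:**
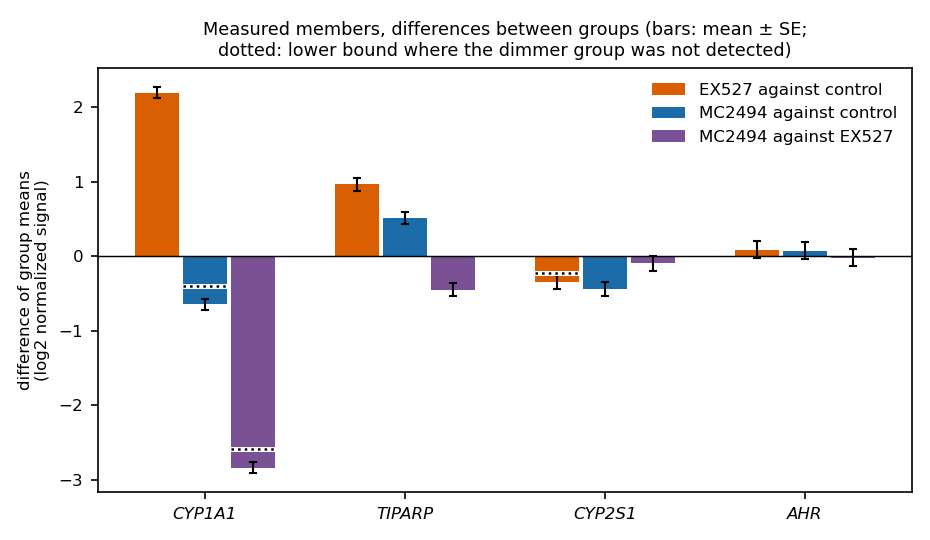
Differences of group means (log2 normalized signal, bars with SE, n = 4 arrays per group) for the 4 measured genes in the 3 comparisons, with a dotted line at the lower bound where no array of the dimmer group detected the gene. CYP1A1 was 2.19 above control in EX527, its dotted bounds in MC2494 lie 0.40 below control and 2.59 below EX527 on this background-corrected scale, TIPARP was above control in both treated groups, and the AHR bars lie within 0.09 of 0.

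Counted by the threshold used for all genes (limma, Benjamini-Hochberg adjusted p under 0.05), 3 of the 4 measured members were called in EX527 against control, where 56.8% of all 9956 genes were. In MC2494 against control 3 of 4 were called against 72.5% of all genes, and in MC2494 against EX527 2 of 4 against 62%. Groups did not overlap for 3, 3 and 2 of the 4 members in these comparisons, against 51.6%, 65.7% and 55.5% of all genes. Calls of at least 1.5-fold, the size used below to pick genes to name, took in 12.1%, 32.7% and 19.6% of all genes. Nothing is read from the members' counts, since the genes were chosen with these comparisons known. The comparisons with control share the same 4 control arrays.

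The genes whose levels followed CYP1A1 most closely over the 12 arrays, out of 9952 other genes, were IMPA2, PHLDA1, C18orf54, HMMR and SPDL1. Their Pearson correlations were 0.994, 0.991, 0.990, 0.990 and 0.988, as a description of 12 points that fall in 3 groups. PHLDA1, a pleckstrin homology-like protein, had mean log2 levels of 6.21 in control, 7.71 in EX527 and 5.60 in MC2494. IMPA2, an inositol monophosphatase, had 11.55, 12.31 and 11.29. HMMR, a spindle-associated hyaluronan receptor, had 9.76, 11.05 and 9.34. All 5 were highest in EX527 and lowest in MC2494, an order that follows from their selection by correlation with CYP1A1. For AHR, whose groups overlapped, the profile is mostly spread within groups, so no contrast with CYP1A1 is read from its matches. Its 5 closest genes were the peroxisomal import receptor gene PEX7, BPY2B, TRPV1, TP53I3 and HLF. Their correlations were 0.776, 0.755, 0.740, 0.709 and 0.703. BPY2B and TRPV1 had group means of 5.05 to 5.26 on the log2 scale, near the lowest detected level.

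A list of 24 further genes reported as responsive to the receptor was set beside the members. Of the 22 on the array 10 were measured, and the other 12 were detected on no array. The undetected genes include the classical battery that accompanies CYP1A1 in liver and epithelium, the aldehyde dehydrogenase ALDH3A1, the glucuronosyltransferases UGT1A1 and UGT1A6 and the glutathione transferases GSTA1 and GSTA2, and also the drug exporter gene ABCG2 and the kynurenine-forming IDO1.

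Of the 10 measured responsive genes 8 rose in EX527 and 0 fell, where 25.9% of all genes rose and 31% fell (limma, adjusted p under 0.05). The median log2 difference of the list was 0.57 against -0.04 for all genes. The list was chosen with earlier results of these data known, so its counts, medians and p-values give no independent support in any comparison. PTGS2, the inducible cyclooxygenase, rose 1.78-fold (0.83 ± 0.11 on the log2 scale, SE, n = 4 per group, limma adjusted p = 2e-05). NFE2L2, which encodes the antioxidant regulator NRF2, rose 1.68-fold (adjusted p = 8.5e-07). The fatty acid receptor gene CD36 rose 1.63-fold, the cytokine gene IL1B 1.56-fold and CDKN1B, the gene of the cyclin-dependent kinase inhibitor p27, 1.55-fold, each at a limma adjusted p of 3.9e-05 or lower. CCNG2, NQO1 and SLC7A5 rose by 0.50, 0.48 and 0.32 on the log2 scale, while NEDD9 (0.20 ± 0.09) and ASB2 (-0.09 ± 0.13) did not pass. With median scaling and with no scaling NEDD9 passed as higher (limma adjusted p = 0.018 and 0.013). Several of these genes answer to other regulators as well: NQO1 is a standard NRF2 target and SLC7A5 an amino acid response gene.

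The same 10 genes split in MC2494 against control, with 5 that rose, 3 that fell and 2 that did not pass, where 37.5% of all genes rose and 35% fell. With median scaling 4 rose and 4 fell. Their median was 0.12 against 0.01 for all genes. NQO1, a quinone reductase, rose 2.10-fold (log2 difference 1.07 ± 0.07, limma adjusted p = 3.4e-09), PTGS2 1.76-fold, NEDD9, a docking protein of focal adhesions, 1.65-fold and NFE2L2 1.49-fold. SLC7A5 rose by 0.36, a call lost with median scaling and with no scaling. CD36 fell 2.75-fold (log2 difference -1.46 ± 0.05, adjusted p = 6.7e-12), with -1.50 on another probe, CCNG2 fell 1.55-fold and IL1B 1.34-fold. CDKN1B (-0.18 ± 0.09) and ASB2 (-0.13 ± 0.13) did not pass.

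Set directly against EX527, MC2494 was lower in 5 of the 10 genes and higher in 2, against 28.9% and 33.1% of all genes. CD36 had log2 levels of 9.86 to 9.97 in control, 10.58 to 10.70 in EX527 and 8.43 to 8.51 in MC2494, and the 3 groups did not overlap. It was 4.48-fold lower in MC2494 than in EX527 (log2 difference -2.16 ± 0.05, limma adjusted p = 8.4e-13). CCNG2 was 2.19-fold lower, IL1B 2.10-fold, CDKN1B 1.76-fold and NFE2L2 1.13-fold. NQO1 was 1.51-fold and NEDD9 1.44-fold higher in MC2494. PTGS2 differed by -0.02 ± 0.11. CD36, IL1B and CCNG2 were thus higher than control in EX527 and lower than control in MC2494, the order in which CYP1A1 also stood.

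**Figure D3:**
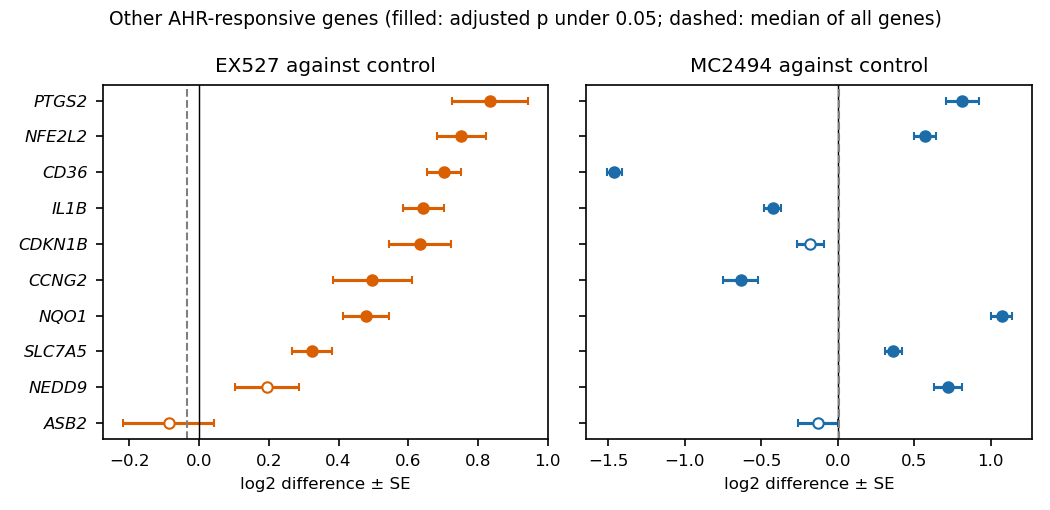
Log2 differences (± SE, n = 4 arrays per group) of the 10 measured genes of the responsive list in EX527 and in MC2494 against control, on separate scales, with filled points past an adjusted p of 0.05 and a dashed line at the median of all genes. In EX527 the 8 filled points lie right of 0, and in MC2494 5 lie right and 3 left, CD36 farthest at -1.46.

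In the cytoplasm AHR is held by HSP90 and the cochaperone p23 (PTGES3), and SRC travels in the complex. Of 6 measured genes of this complex and of receptor turnover 2 rose and 2 fell in EX527 (all genes: 25.9% and 31%), and 2 rose and 3 fell in MC2494 against control (all genes: 37.5% and 35%). CUL4B, a ubiquitin ligase scaffold that works with AHR, rose 1.48-fold in EX527 and 1.43-fold in MC2494. HSP90AB1 fell 1.26-fold and 1.44-fold. PTGES3 differed by -0.14 ± 0.13 in EX527 and fell by 0.40 ± 0.13 in MC2494, and SRC rose 1.38-fold in MC2494. HSP90AA1 rose by 0.20 in EX527, a call lost with median scaling and with no scaling.

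Relatives of AHR and ARNT share the bHLH-PAS fold. Of 8 measured, 4 rose and 1 fell in EX527, where 25.9% of all genes rose and 31% fell. In MC2494 against control 5 rose and 2 fell, where the shares of all genes were 37.5% and 35%. The list's medians were 0.22 and 0.37, or 0.14 and 0.30 with NCOA2, undetected in control, set at its bound. NCOA2, named after its values were seen, is 1 of the 5 that rose, with a bound of 1.01-fold and a call lost with no scaling (limma adjusted p = 0.077). EPAS1, the hypoxia-inducible factor 2 alpha gene, rose 3.69-fold in MC2494 (log2 difference 1.89 ± 0.06, limma adjusted p = 2.6e-12) and 1.34-fold in EX527. The coactivator gene NCOA1 rose 2.38-fold and HIF1A 1.71-fold in MC2494. NPAS4, detected on 2 of the 4 MC2494 arrays, fell 1.76-fold in the fit, or 1.66-fold once its undetected arrays were set to that floor. In EX527 these genes stood at 0.32 (NCOA1), 0.27 (HIF1A) and -0.54 (NPAS4), each past the threshold. ARNT2 and NPAS2 were detected on no array.

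The tryptophan route supplies endogenous ligands such as kynurenine. Of 12 measured genes 5 rose and 2 fell in EX527, with a median of 0.04, beside 25.9% and 31% of all genes and their median of -0.04. In MC2494 against control 6 rose and 3 fell, with a median of 0.20, beside 37.5%, 35% and 0.01. SLC7A5, 1 of the 6, lost its call with median scaling and with no scaling. The ligand-forming dioxygenases TDO2 and IDO1 and the kynurenine hydroxylase KMO were detected on no array. IL4I1, detected on 7 arrays and near the lowest detected level, rose by 0.37 in MC2494 and differed by -0.05 ± 0.09 in EX527. KYAT1 fell by 0.44 in both treatments. KYAT3 rose by 0.34 in EX527 and did not pass in MC2494. WARS1, the tryptophanyl-tRNA synthetase, rose 1.96-fold in EX527 and 3.35-fold in MC2494. SLC3A2, the heavy chain of the tryptophan-carrying exchanger, rose by 0.53 and 0.93 on the log2 scale. AFMID, the formamidase that releases kynurenine, fell 1.55-fold in EX527 and 2.08-fold in MC2494, where 3 of 4 arrays detected it. Its raw signals were 120.4 to 136.1 in control and 77.5 to 86.0 in MC2494. KYNU, which cleaves kynurenine, rose by 0.50 in EX527 and fell by 0.21 in MC2494, the latter a call lost with median scaling, with no scaling and on its other probe. QPRT, a later enzyme of the route to NAD, rose 1.58-fold in MC2494.

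Of the 51 other cytochrome P450 genes on the array 9 were measured, 5 of which rose and 0 fell in EX527 (all genes: 25.9% and 31%), and 6 rose and 1 fell in MC2494 against control (all genes: 37.5% and 35%). With median scaling and with no scaling CYP46A1, which had not passed, was also lower in MC2494, so that 2 fell. None of the 9 passed 1.5-fold in EX527, where CYP4V2 rose by 0.53, CYP51A1, the sterol demethylase, by 0.51 and the vitamin D 25-hydroxylase CYP2R1 by 0.45. In MC2494 the ethanol-inducible CYP2E1 rose 2.11-fold, CYP4V2 2.01-fold and CYP51A1 1.67-fold, and CYP27B1, the vitamin D 1-alpha-hydroxylase, fell 1.57-fold. CYP2E1 lay near background, at raw signals of 91.0 to 104.1 in control and 129.3 to 154.8 in MC2494. Its fold therefore rests in part on the background correction. MC2494 against EX527 gave 1.75-fold higher CYP2E1 and 1.74-fold lower CYP27B1. Over the 9 genes 4 were higher and 2 lower in MC2494 than in EX527 (all genes: 33.1% and 28.9%). Among the 4, CYP20A1 lost its call with median scaling and with no scaling, and CYP27A1 was detected on no EX527 array.

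**Figure D4:**
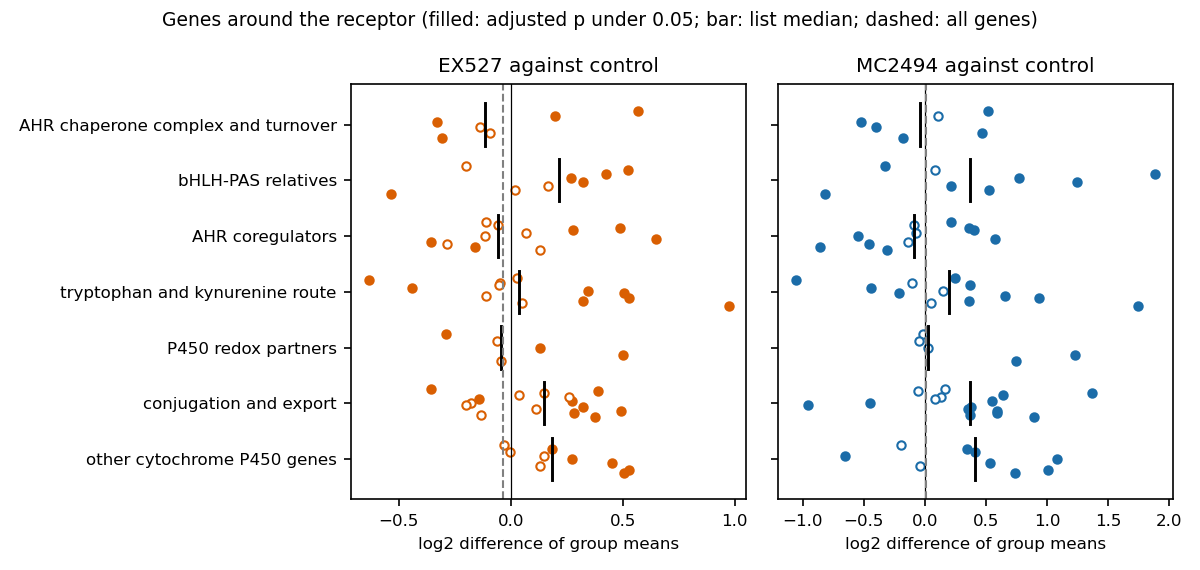
Log2 differences of group means for the measured genes of 7 lists around the receptor, in EX527 and in MC2494 against control, on separate scales, with filled points past an adjusted p of 0.05, a bar at each list's median and a dashed line at the median of all genes. In MC2494 the median of the other P450 genes was 0.41 and that of the conjugation list 0.37.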

How the data were processed

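Total RNA of U937 cells (3000 ng per sample) was labelled with biotin and hybridised to Illumina BeadChips, 12 arrays in 3 groups of 4, grouped by the treatment in the labels. Per the file headers, the deposited table gives for every probe a linear, non-normalized bead intensity and next to it a detection p-value. A further deposited table holds log2 values made by the authors and quantile normalized, since its sorted columns differ by less than 0.001. The submitters' processing notes name limma.

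The neqc function (limma 3.58.1, R 4.3.3) corrected, quantile normalized and log-transformed the intensities (offset 16, background inferred from the detection p-values). Of 24526 probes 21834 carried 1 symbol, 0 several and 2692 none, with names updated through RefSeq of GRCh38.p14 (21 kept older symbols). Probes with detection p under 0.05 on at least 4 of 12 arrays were kept (13174), and the brightest kept probe stood for each gene, giving 9956 genes. One mean per group was fitted with lmFit and eBayes on all arrays, and p-values were adjusted over all genes by the Benjamini-Hochberg method at 0.05. Bounds set undetected arrays at the lowest detected signal of that array. The fit was tested on simulated data. Array number and signal over background limit the precision.

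Members and gene lists were chosen with earlier results of these data known, so the lists give no independent support. Text names all members, list genes called at 1.5-fold or more (up to 4 per list and comparison), and the genes most correlated with CYP1A1 and AHR. Other list genes, given to complete a list or to set a value beside another comparison, were named after their values were seen. Promoter windows came from RefSeq, where 7 of the 8 genes matched. Alternatives changed the background, offset, scaling, filter, probe choice, variance model, weights, groups fitted, replicate block and threshold, left out each array, and used the deposited log2 table.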

Additional observations from a re-analysis of the deposited data

How the results depend on the processing

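CYP1A1 and TIPARP kept their direction in all 26 alternatives of each comparison. Several of these cannot change a difference of group means for a gene read with 1 probe, so the number 26 overstates the check. Among them are the variance model, the groups fitted, the replicate block, the probe choice, and leaving out an array of the group not compared. The size of the CYP1A1 differences moved with the background. For EX527 against control the fitted log2 difference of 2.19 became 1.43 with no background correction, 1.43 with normexp and an offset of 50, 1.61 with a neqc offset of 50 and 1.43 in the deposited log2 table. For MC2494 against control (-0.64) the same 4 settings gave -0.37, -0.37, -0.33 and -0.37, and for MC2494 against EX527 (-2.84) they gave -1.81, -1.79, -1.95 and -1.79. TIPARP in MC2494 against EX527 was -0.59 with no scaling. With each array left out in turn CYP1A1 ran from 2.15 to 2.26, from -0.69 to -0.61 and from -2.90 to -2.80 in these comparisons. AHR, not called in any setting, changed sign in 1 alternative of MC2494 against control and 3 of MC2494 against EX527. CYP2S1 had no value at a detection p under 0.01, and moved by more than its spread in 8 alternatives, all of them in the background, the offset or the deposited table. Counts of the responsive list stayed within 1.5 times in all 162 recomputations, while for the other lists 1030 did and 104 did not. Of the genes called in MC2494 against EX527 53.4% were higher, 41.9% with median scaling and 35.9% with no scaling. It is not settled if the replicate numbers pair the arrays. Deviations of same-numbered arrays correlated from -0.04 to 0.19, and from 0.05 to 0.13 in MC2494 against control. Of 24 matches 9 were best with the own number. With the replicate block 5737, 7275 and 6235 genes were called against 5656, 7222 and 6168. The CYP1A1 differences of 2.19, -0.64 and -2.84 cannot change with this block, since every group holds each replicate number once. Signal near background limits CYP1A1 in MC2494 and CYP2S1, and leaves CYP1A2, CYP1B1, AHRR and ARNT unmeasured. Folds of list genes near background, such as PTGS2, CCNG2, NPAS4, CYP2E1, CYP27B1, FDX1 and AFMID, also rest in part on the background correction. The folds given for these genes are larger than the ratios of their raw signals.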

Other observations

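Genes that serve P450 enzymes or conjugate their products were set beside the axis. Of 5 measured redox partners 2 rose and 0 fell in MC2494 against control, and 2 rose and 1 fell in EX527 (limma, adjusted p under 0.05). Of all genes 37.5% rose and 35% fell in MC2494, and 25.9% rose and 31% fell in EX527. With median scaling, and with no scaling, CYB5B and CYB5R3 were lower in MC2494, giving 2 that rose and 2 that fell, and in EX527 CYB5R3 lost its call and CYB5B was lower, giving 1 and 2. POR, the reductase that feeds electrons to CYP1A1 and other microsomal P450 enzymes, rose 1.67-fold (limma adjusted p = 7.9e-07) and differed by -0.04 ± 0.08 in EX527. The mitochondrial ferredoxin gene FDX1 rose 2.34-fold in MC2494 and 1.42-fold in EX527. Its raw signals were near background, at 91.6 to 113.4 in control and 150.7 to 180.3 in MC2494. Of 15 measured conjugation and export genes 9 rose and 2 fell in MC2494, and 6 rose and 2 fell in EX527. The shares of all genes are those given above. Medians were 0.37 and 0.15, or 0.35 and 0.04 with 2 genes undetected in control set at their bound. In EX527 GSTO2 is among the 6, but no control array detected it and its bound was 0.94-fold, so its rise is not shown. EPHX1, the microsomal epoxide hydrolase that acts on products of CYP1A1, rose 2.58-fold in MC2494 (limma adjusted p = 1.3e-10) and differed by 0.15 ± 0.06 in EX527. TPMT rose 1.86-fold and GSTK1 1.56-fold, and GSTZ1 fell 1.94-fold. The rises of SULT1A1, MGST1 and MGST2 in MC2494 lost their call with median scaling and with no scaling, where GSTO1 passed the threshold as lower. In EX527 SULT1A1 and GSTP1 were lower under both scalings, so that 4 fell, and EPHX1 passed as higher (limma adjusted p = 0.0078 and 0.0096).

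Of 11 measured AHR coregulators 3 rose and 2 fell in EX527, and 4 rose and 4 fell in MC2494 against control, with medians of -0.06 and -0.09. These counts stand beside the same shares of all genes, and CREBBP, 1 of the 4 that rose in MC2494, lost its call with median scaling and with no scaling, leaving 3. In EX527 PARP1 passed as lower and SP1 as higher under both scalings. RB1, the retinoblastoma gene, rose 1.57-fold in EX527 and 1.49-fold in MC2494. SMARCA4, the BRG1 chromatin remodeller that AHR recruits, fell 1.82-fold in MC2494 and 1.12-fold in EX527.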
